A study of Caenorhabditis elegans with 2 samples.

Results

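The regions described here are the upstream windows of all 261 genes of biotype miRNA on the 6 nuclear chromosomes of the C. elegans genome, among 46890 genes of every biotype there. Each window spanned the 1000 bp before and the first 250 bp after the gene's annotated 5′ end, and a gene was called bound when the summit of a PQM-1 peak lay inside it. The peaks came from chromatin immunoprecipitation and sequencing (ChIP-seq) of PQM-1 in whole L3 larvae, in 2 biological replicates of 1 group. Both replicates were strain OP201, which carries the unc-119(tm4063) III mutation and the transgene wgIs201, an insertion that supplies eGFP-tagged pqm-1, and the larvae were of mixed sex. There was no other genotype, stage or treatment, so the comparisons below set microRNA windows beside the windows of 19973 protein-coding genes and beside all 5560 peaks of the authors' optimal list. The optimal list is the one filtered by irreproducible discovery rate, which scores how alike the ranked lists of 2 replicates are. A place on it does not mean that each replicate had the peak, since 93.5% of its peaks overlapped a peak of replicate 2. PQM-1 was read from the transgene, and a signal from whole larvae does not tell which cells carried it.

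MicroRNAs are short RNAs that pair through their seed, bases 2 to 8, with messenger RNAs and lower their translation and stability. They are cut from a hairpin inside a longer primary transcript, which either has its own promoter or is the transcript of a host gene. In C. elegans, lin-4 and the let-7 family time larval development, and others act in stress resistance, ageing, body size and embryogenesis. PQM-1 is a zinc finger transcription factor with a role in stress responses, growth and lifespan, and it is linked with TGATAAG, the DAF-16-associated element, whose core GATAA is also the recognition site of GATA factors. For 7 of the 261 genes the annotation held a primary transcript. For the others the 5′ end was that of the hairpin record, so a window there lies upstream of the hairpin and need not hold the start of transcription.

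The 101 bases centred on a summit are printed for the bound windows that the results turn on, from the ce11 (WBcel235) genome and 5′ to 3′ on the strand of the microRNA. The first set holds TGATAAG on either strand, in capitals, and shows the element at microRNA peaks: mir-77 at chrII:12519030-12519130 (plus strand), mir-270 at chrIV:3258648-3258748 (minus strand), mir-75 at chrX:2372254-2372354 (plus strand), mir-63 at chrX:17598833-17598933 (minus strand) and mir-5592-1 at chrX:13760192-13760292 (minus strand).
mir-77: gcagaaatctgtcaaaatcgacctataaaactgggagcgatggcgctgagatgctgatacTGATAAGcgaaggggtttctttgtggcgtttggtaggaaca
mir-270: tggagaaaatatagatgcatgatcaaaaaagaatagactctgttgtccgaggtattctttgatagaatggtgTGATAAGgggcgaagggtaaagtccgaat
mir-75: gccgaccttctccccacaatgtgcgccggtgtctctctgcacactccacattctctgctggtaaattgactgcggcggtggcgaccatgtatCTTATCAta
mir-63: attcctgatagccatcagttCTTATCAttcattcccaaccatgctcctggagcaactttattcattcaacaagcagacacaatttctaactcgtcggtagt
mir-5592-1: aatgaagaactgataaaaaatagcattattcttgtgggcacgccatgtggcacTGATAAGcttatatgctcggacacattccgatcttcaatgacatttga
The second set holds only the shorter GATAA, in capitals on either strand, and belongs to the strongest peaks outside protein-coding promoters: mir-60 at chrII:6328818-6328918 (minus strand) and mir-83 at chrIV:7841371-7841471 (plus strand).
mir-60: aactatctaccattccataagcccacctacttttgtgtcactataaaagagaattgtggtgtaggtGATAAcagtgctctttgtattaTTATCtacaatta
mir-83: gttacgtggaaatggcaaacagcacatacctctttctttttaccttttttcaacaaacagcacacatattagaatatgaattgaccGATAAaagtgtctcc
The third set has no GATAA at all, and shows peaks of the developmental microRNAs lin-4 at chrII:5901758-5901858 (plus strand) and mir-241 at chrV:14366593-14366693 (minus strand), and of the mir-229 cluster at chrIII:2172091-2172191 (plus strand). Capitals mark GAGAG on either strand, a string chosen after these sequences were seen.
lin-4: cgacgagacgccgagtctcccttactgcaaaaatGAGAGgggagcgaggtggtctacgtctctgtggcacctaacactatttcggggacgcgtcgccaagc
mir-241: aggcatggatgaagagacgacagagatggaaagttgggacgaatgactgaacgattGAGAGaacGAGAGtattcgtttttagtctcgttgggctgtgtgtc
mir-229: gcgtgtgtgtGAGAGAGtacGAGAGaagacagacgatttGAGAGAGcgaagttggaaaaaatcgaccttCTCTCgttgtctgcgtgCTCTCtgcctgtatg

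Several bound genes share a seed, and their mature sequences are printed as read from the RefSeq coordinates of the same assembly, with the seed in capitals. The arm shown is the one that carries the shared seed. The seed ACCCGUA belongs to the mir-51 family, in which mir-51 was the unbound member.
mir-52: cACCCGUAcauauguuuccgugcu
mir-53: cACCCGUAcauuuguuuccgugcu
mir-54: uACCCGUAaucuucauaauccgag
mir-55: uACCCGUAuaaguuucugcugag
mir-56: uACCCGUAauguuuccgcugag
mir-51: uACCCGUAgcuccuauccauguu
The seed AUGACAC was shared by 5 genes, all of them bound, of which 4 are shown.
mir-229: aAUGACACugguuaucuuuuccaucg
mir-64: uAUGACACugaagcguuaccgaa
mir-66: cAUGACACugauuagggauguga
mir-63: uAUGACACugaagcgaguuggaaa
The seed UUGUACU was shared by 3 genes, all of them bound.
mir-239a: uUUGUACUacacauagguacugg
mir-239b: uUUGUACUacacaaaaguacug
mir-238: uUUGUACUccgaugccauucaga
The seed GGCAAGA was shared by 6 genes, of which mir-72 and mir-74 were bound.
mir-72: aGGCAAGAuguuggcauagcuga
mir-74: uGGCAAGAaauggcagucuaca
The developmental timing microRNAs fall into the lin-4 family and the let-7 family, each with bound and unbound members. In the first, lin-4 was bound and mir-237 was not, and in the second mir-241 was bound and let-7, mir-48 and mir-84 were not.
lin-4: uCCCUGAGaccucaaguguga
mir-237: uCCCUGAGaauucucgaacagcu
mir-241: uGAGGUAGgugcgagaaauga
let-7: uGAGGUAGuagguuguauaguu
mir-48: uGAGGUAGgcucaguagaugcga
mir-84: uGAGGUAGuauguaauauuguaga

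Of the 261 microRNA genes, 49 had an optimal summit in the window, a share of 18.8% with an exact (Clopper-Pearson) 95% binomial interval of 14.2 to 24.1%, against 16.3% of the protein-coding genes. The interval covers counting error only, and it contains the share of protein-coding genes, so the data do not separate the 2 shares. The 49 genes were covered by 44 distinct peaks, because neighbours share them: 4 of the peaks lay in the windows of several microRNA genes, 9 genes in all. When overlapping windows were merged, 42 of 219 stretches were bound, or 19.2%. Peak signal is the authors' own score, on a scale that is not stated, and it serves below only to rank peaks within a list. The microRNA peaks had a median signal of 45.3, against 43.6 over all optimal peaks. They reached 132 for mir-60, while the strongest peak anywhere reached 472. In the first 2780 of the 5560 ranks stood 23 of the 44, and 9 were among the strongest 1000. The microRNA peaks therefore spread over the whole range of the list, from near its top to near its end.

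**Figure D1:**
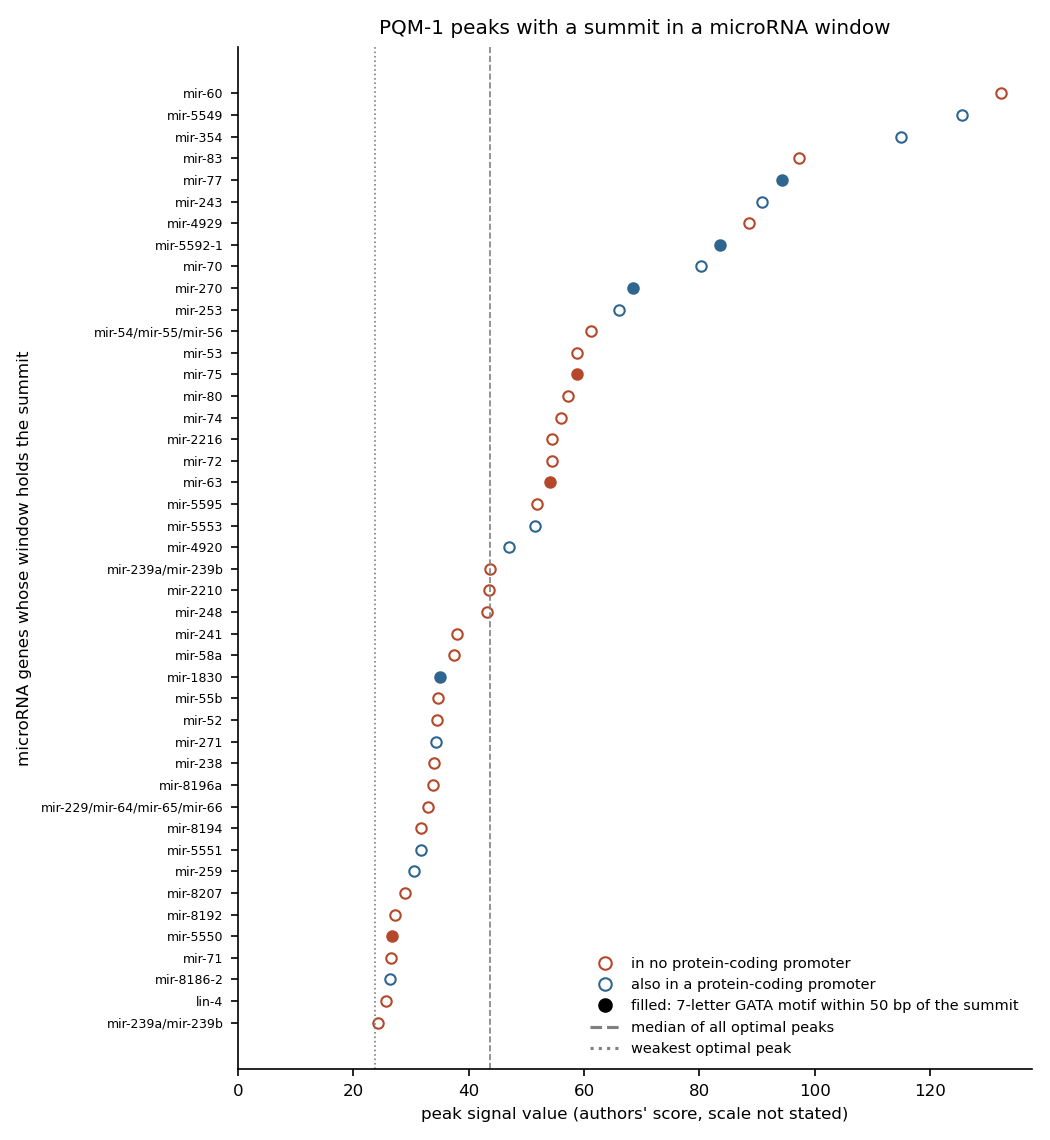
Signal value of each of the 44 optimal peaks with a summit in a microRNA window, one row per peak, named by the microRNA genes whose window holds it; filled points have TGATAAG within 50 bp of the summit, and the lines mark the median (43.6) and the weakest signal (23.82) of all optimal peaks. The peaks of mir-60, mir-5549 and mir-354 stand above 100, and of the 10 strongest peaks 7 also lie in a protein-coding promoter, a share not counted for the strongest of all optimal peaks.

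A peak in a microRNA window also lay in the promoter window of a protein-coding gene, drawn with the same limits, in 15 of the 44 cases (34.1%, 20.5 to 49.9%), against 49.5% of all optimal peaks. These 15 peaks touched 19 protein-coding genes, since 4 of them lay in a pair of promoters. The other 29 peaks, with 34 microRNA genes, lay in no protein-coding promoter. When the start of every annotated transcript was used instead of the gene's 5′ end, 22 of the 44 lay in a protein-coding promoter (50%, 34.6 to 65.4%), against 57.1% of all optimal peaks. The median signal was 66.0 for the microRNA peaks in a protein-coding promoter and 43.1 for the others. All optimal peaks were not split in this way, so the difference is not shown to be particular to microRNA windows. By place, 27 of the 44 summits were in intergenic sequence, 13 in an intron and 4 in an exon of a protein-coding gene.

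The peaks set farthest apart from protein-coding genes were the 16 whose summit lay outside every such gene and outside the promoter of any of its transcripts. Other non-coding genes near these summits were not read, so the peaks are not shown to belong to the microRNA alone. The strongest was that of mir-60, an intestinal microRNA, at chrII:6328775-6328988. Its summit was 69 bp upstream of the hairpin and the nearest protein-coding start, of the histone methyltransferase gene set-4, was 2473 bp away. The mir-60 signal of 132 ranked 192 in the optimal list, with rank 123 in replicate 1 and 599 in replicate 2. Next came mir-83, a member of the miR-29 seed group, at chrIV:7841251-7841590, with the summit 210 bp upstream. Its signal was 97.3 (rank 530), with rank 710 in replicate 1 and 232 in replicate 2, so the replicates order mir-60 and mir-83 differently. The nearest protein-coding start to the mir-83 summit was 2895 bp away.

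The peaks of 6 further microRNA genes outside protein-coding genes had signals from 54.1 to 58.8, all within the first 2780 ranks. The summit of mir-53, of the mir-51 family, was 123 bp upstream at chrIV:11027644-11027983 and had a signal of 58.8 (rank 1717), with ranks 1672 and 1985 in replicates 1 and 2. That of mir-75 was 149 bp upstream at chrX:2372134-2372473, with the almost equal signal of 58.8 (rank 1718) and ranks 1204 and 3153. For mir-80, a member of the abundant mir-58 family known for roles in embryonic and larval growth, the summit was 241 bp upstream at chrIII:8865438-8865777, with a signal of 57.2 (rank 1807) and ranks 1644 and 1944. The nearest protein-coding start was 1614 bp from the mir-53 summit, 3681 bp from that of mir-75 and 11520 bp from that of mir-80. The mir-74 summit lay 242 bp downstream of its 5′ end, past the hairpin, at chrX:2369115-2369454, with a signal of 56.0 (rank 1872) and ranks 2285 and 1374. The mir-72 summit was 171 bp upstream at chrII:2452497-2452836, with a signal of 54.4 (rank 1966) and ranks 2211 and 2512. The microRNA mir-63 had its summit 15 bp upstream at chrX:17598713-17599052, with a signal of 54.1 (rank 1984) and ranks 2656 and 1410.

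The other peaks outside protein-coding genes were weaker. The mir-248 summit was 108 bp upstream at chrX:2262408-2262747 (signal 43.1, rank 2824, replicate ranks 2283 and 3885). The mir-241 summit, in the let-7 family, was 360 bp upstream at chrV:14366473-14366812 (signal 38.0, rank 3391), and its replicate ranks of 2802 and 9339 show it far down the list of replicate 2. The mir-52 summit was 727 bp upstream at chrIV:14033111-14033450 (signal 34.6, rank 3777, replicate ranks 3115 and 7524). Like mir-241, mir-52 stood higher in replicate 1. The mir-238 summit was 174 bp upstream at chrIII:8867429-8867768 (signal 33.9, rank 3864, replicate ranks 2451 and 2665). The mir-8196a summit was 91 bp downstream at chrX:2328915-2329254 (signal 33.9, rank 3871, replicate ranks 4489 and 2913). The mir-8194 summit was 203 bp upstream at chrV:1221401-1221740 (signal 31.8, rank 4179, replicate ranks 5230 and 1994). These 6 peaks lay below the median signal of the list.

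The divergent pair mir-239b and mir-239a shared both of its peaks. The hairpins point away from each other, and the summits lie between them in 1 intergenic stretch. The first, at chrX:11791513-11791852, was 284 bp upstream of mir-239b and 762 bp upstream of mir-239a, with a signal of 43.6 (rank 2771). The second, at chrX:11791743-11792082, was 514 bp and 532 bp upstream, with a signal of 24.2 (rank 5480), close to the end of the list. The 2 optimal peaks overlap each other, and the strongest overlapping peak of each replicate list was the same for both. It had rank 2185 in replicate 1 and 3242 in replicate 2. Only the strongest overlap was read, so the replicate ranks do not tell the 2 peaks apart. Loss of mir-239 microRNAs is known to affect lifespan and stress resistance. The mature sequences of the pair are similar, but the summits lie outside both hairpins.

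**Figure D2:**
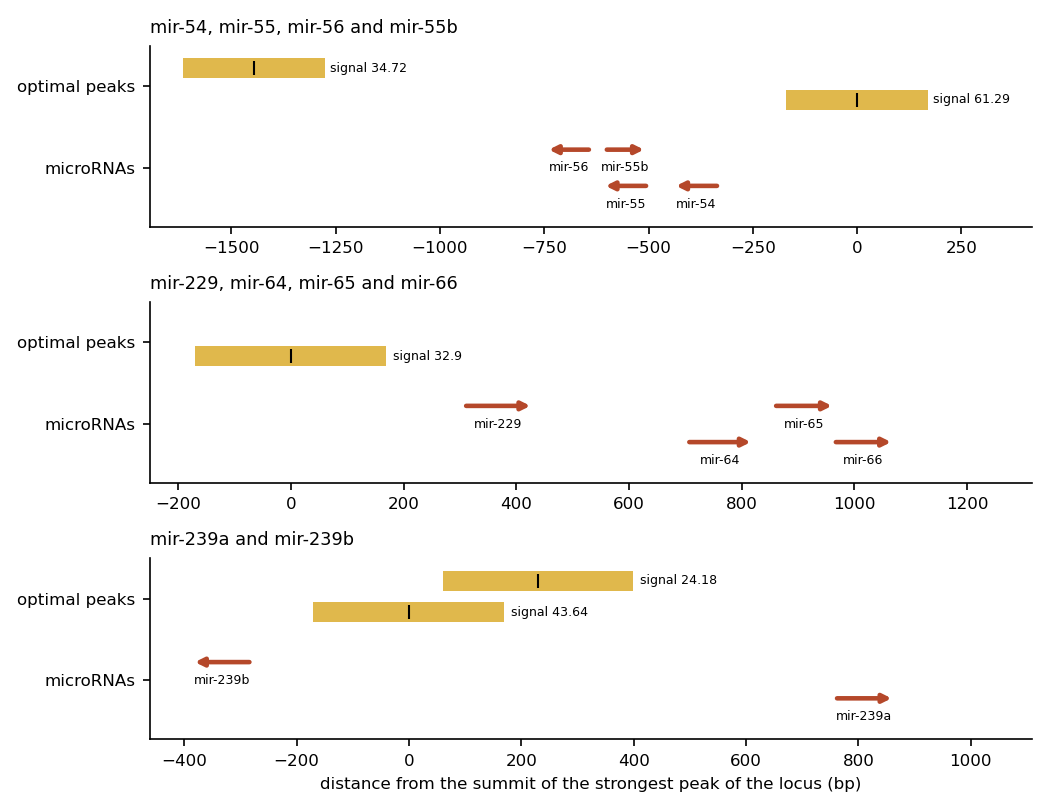
Optimal peaks (bars, with a tick at the summit and the signal value beside them) and microRNA hairpins (arrows, 5′ to 3′) at the loci of mir-54/mir-55/mir-56/mir-55b, mir-229/mir-64/mir-65/mir-66 and mir-239a/mir-239b, in bp from the summit of the strongest peak of the locus. In the first locus the peak of signal 61.3 lies upstream of mir-54, mir-55 and mir-56 and the other upstream of mir-55b on the opposite strand, in the second 1 peak lies upstream of the whole cluster, and in the third both peaks lie between the divergent hairpins.

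A further 13 peaks lay in introns of protein-coding genes outside the promoter of the gene's 5′ end, and they include the 2 microRNA clusters that share a peak. At chrIII:2171971-2172310 a peak of signal 32.9 (rank 4002) lay 311 bp upstream of mir-229, 707 bp upstream of mir-64, 861 bp upstream of mir-65 and 967 bp upstream of mir-66, which follow each other on the same strand inside gcn-1, a translation regulator. It ranked 2815 in replicate 1 and 6627 in replicate 2, and the start of gcn-1 was 20196 bp away. At chrX:13145260-13145599 a peak of signal 61.3 (rank 1608) lay 336 bp upstream of mir-54, 506 bp upstream of mir-55 and 643 bp upstream of mir-56, on the strand opposite to their host gene F09A5.3. Its replicate ranks were 1623 and 2222. The start of F09A5.3 was 3829 bp away. On the other strand, mir-55b overlaps mir-55 and had a peak of its own 845 bp upstream at chrX:13143815-13144154, with a signal of 34.7 (rank 3750) and replicate ranks 5304 and 1196. Peaks carry no strand, so a peak is tied to a gene here through the window alone.

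Among the single intronic microRNAs, 3 peaks lay in the promoter of no annotated transcript, and all 3 ranked below 2780. The mir-58a summit was 378 bp upstream at chrIV:3232706-3233045 in Y67D8A.2, with a signal of 37.4 (rank 3451). It ranked 2531 in replicate 1 and had no peak in replicate 2. The mir-71 summit, 398 bp upstream at chrI:9380248-9380587 in ppfr-1, had a signal of 26.5 (rank 5042) and replicate ranks 5613 and 4655, and mir-71 is known to promote longevity. The lin-4 summit was 446 bp upstream at chrII:5901638-5901977 in F59G1.4, with a signal of 25.6 (rank 5216). It ranked 3576 in replicate 1 with no overlapping peak in replicate 2, which makes lin-4 one of the least supported members.

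The remaining 7 intronic peaks lay at the start of another transcript of a protein-coding gene. The mir-4929 summit was 311 bp upstream at chrII:13462106-13462284, in E01G4.3, with a signal of 88.6 (rank 710) and replicate ranks 839 and 826. The mir-2216 summit was 272 bp upstream at chrII:10867274-10867613, in gmps-1, which encodes GMP synthase, with a signal of 54.5 (rank 1955) and replicate ranks 1543 and 4954. The mir-5595 summit was 139 bp upstream at chrII:14399598-14399937, in the chromatin remodelling gene nurf-1 on the other strand, with a signal of 51.8 (rank 2132) and replicate ranks 2343 and 2089. These 3 stood within the first 2780 ranks. The mir-2210 summit was 724 bp upstream at chrIV:10913724-10914063, in ZK593.2, with a signal of 43.5 (rank 2789) and replicate ranks 3683 and 2366. The mir-8207 summit was 81 bp downstream at chrIV:11722004-11722343, in the scaffold gene magi-1 (signal 28.9, rank 4647, replicate ranks 4412 and 4941). The mir-8192 summit was 371 bp upstream at chrII:6943344-6943683, in the folliculin gene flcn-1 (signal 27.1, rank 4926, replicate ranks 4843 and 17055). The mir-5550 summit was 670 bp upstream at chrIV:408922-409261, in the JNK-like kinase gene kgb-1 on the other strand (signal 26.6, rank 5033). It ranked 3709 in replicate 1 and had no peak in replicate 2. At all 7, the microRNA and a transcript of the host gene share the peak.

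The 15 peaks shared with a protein-coding 5′ end included 7 of the 10 strongest microRNA peaks. The like share among the strongest of all optimal peaks was not counted. The mir-5549 peak at chrIII:6971993-6972189 had a signal of 126 (rank 230) and replicate ranks 234 and 195, with its summit 10 bp upstream of the microRNA. The same summit was 158 bp upstream of rfc-4, a replication factor C subunit, and 383 bp upstream of eef-1A.1, the translation elongation factor. The mir-354 peak had a signal of 115 (rank 318) and replicate ranks 471 and 199, with its summit 841 bp upstream of the microRNA but 229 bp upstream of its host rps-20, a ribosomal protein gene, and 168 bp upstream of ekl-4. The mir-5549 summit was thus nearest to the microRNA, and the mir-354 summit was nearest to the protein-coding starts. The mir-77 peak at chrII:12518999-12519087 had a signal of 94.3 (rank 591) and replicate ranks 745 and 656. Its summit was 188 bp upstream of mir-77, 221 bp upstream of srh-70, a chemoreceptor-class gene, and 901 bp upstream of the homeobox gene ceh-99. For mir-77 the microRNA start was the nearest of the 3.

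The mir-243 peak at chrIV:4449870-4450017 had a signal of 90.8 (rank 667) and replicate ranks 701 and 880, and its summit was 809 bp upstream of the microRNA but 231 bp downstream of the start of its host gene R08C7.12. The mir-5592-1 peak at chrX:13760163-13760282 had a signal of 83.5 (rank 833) and replicate ranks 1016 and 434, with its summit 934 bp upstream of the microRNA and 5 bp downstream of the start of cest-13, a carboxylesterase gene. In both, the protein-coding start was much the nearer. The mir-70 peak at chrV:6665926-6666028 had a signal of 80.3 (rank 916) and replicate ranks 1110 and 713, with its summit 337 bp upstream of mir-70 and 159 bp upstream of its host pmp-5, a peroxisomal membrane transporter gene. The mir-270 peak at chrIV:3258666-3258758 had a signal of 68.4 (rank 1300) and replicate ranks 1426 and 1101, with its summit 149 bp upstream of mir-270 and 212 bp upstream of T26C12.1. Of these 4 microRNAs only mir-270 was nearer to the summit than the protein-coding start.

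The other 8 shared peaks had signals from 26.3 to 66.0. The mir-253 summit (signal 66.0) was 338 bp upstream of the microRNA and 32 bp upstream of its host F44E7.5, and the mir-4920 summit (46.9) was 289 bp upstream of the microRNA and 203 bp upstream of its host sph-1. The mir-1830 summit (34.9) was 688 bp upstream of the microRNA and 70 bp upstream of its host paic-1, a purine synthesis gene. In all 3 the host start was the nearer. Outside host genes, the mir-5553 summit (51.6) was 387 bp upstream of the microRNA and 3 bp downstream of the start of C46F2.1, and the mir-259 summit (30.6) was 313 bp upstream of the microRNA, 24 bp downstream of the start of F25D1.8 and 886 bp upstream of the channel gene degt-1. The mir-5551 summit (31.7) was 271 bp upstream of the microRNA and 404 bp upstream of the nuclear receptor gene nhr-97, and the mir-8186-2 summit (26.3) was 245 bp upstream of the microRNA and 596 bp upstream of gmeb-1. These last microRNAs, mir-5551 and mir-8186-2, stood nearer to the summit than the protein-coding start. The mir-271 summit (34.3), 239 bp upstream of mir-271 and 150 bp upstream of the actin-dynamics gene unc-78, was the only 1 of the 15 without an overlapping peak in replicate 2. The mir-5592-1 and mir-8186-2 genes each share the seeds of both arms with 1 other gene, and how the authors placed reads that match more than 1 copy is not stated.

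The bound windows had their strongest summit at a median of 311 bp upstream of the microRNA 5′ end, with quartiles of 643 and 174 bp upstream. The range ran from 967 bp upstream, for mir-66, to 242 bp downstream, for mir-74. Within 500 bp upstream stood 32 of the 49, another 14 stood farther upstream, and 3 stood downstream, those of mir-74, mir-8196a and mir-8207. Protein-coding genes had their summits at a median of 211.5 bp upstream of the gene's annotated 5′ end. For most microRNA genes the 5′ end was that of the hairpin record, which need not be the start of transcription. The medians therefore do not compare distances to the start of transcription, which was not tested.

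**Figure D3:**
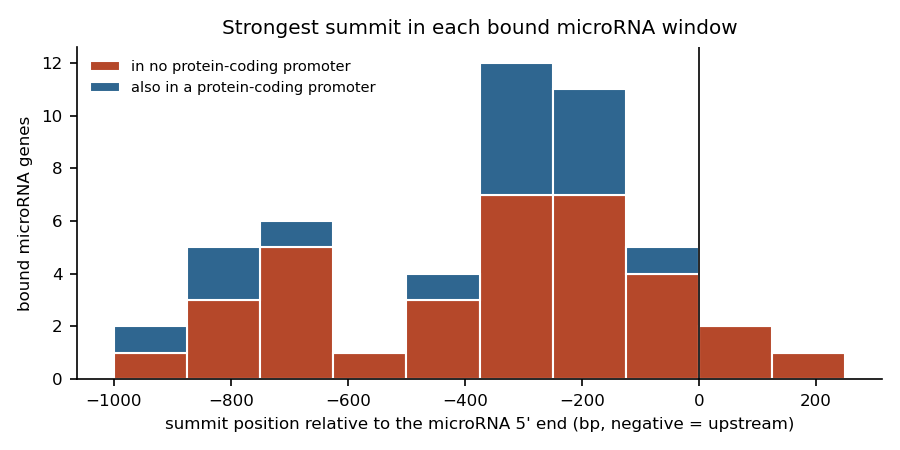
Position of the strongest optimal summit in each of the 49 bound microRNA windows, in bp from the microRNA 5′ end (negative is upstream), stacked by whether the peak also lies in a protein-coding promoter. Most genes, 32 of the 49, have it within 500 bp upstream.

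Bound genes were found in every setting of microRNAs relative to protein-coding genes. Of the microRNAs inside a host gene on the same strand, 19 of 74 were bound (25.7%, 16.2 to 37.2%). Of those inside a gene on the opposite strand, 6 of 32 were bound (18.8%, 7.21 to 36.4%). Of those outside protein-coding genes, 24 of 155 were bound (15.5%, 10.2 to 22.2%). The intervals of the 3 settings overlap, and each contains the 16.3% of protein-coding genes. All intervals here treat genes as independent, although neighbours that share a peak are not. Of the 19, mir-229, mir-64, mir-65 and mir-66 are 4 genes with 1 peak. Of the 6, mir-54, mir-55 and mir-56 are 3 genes with 1 peak. Where the window overlapped a protein-coding promoter, 20 of 89 genes were bound (22.5%, 14.3 to 32.6%), and elsewhere 29 of 172 (16.9%, 11.6 to 23.3%). Of the 19 same-strand hosted microRNAs whose host had a bound promoter, 11 were bound themselves (57.9%, 33.5 to 79.8%), and of the 55 whose host promoter was not bound, 8 were (14.6%, 6.495 to 26.7%). In 6 of the 19 bound hosted microRNAs the peak was the one in the host's own promoter, so the first share holds peaks counted on both sides.

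**Figure D4:**
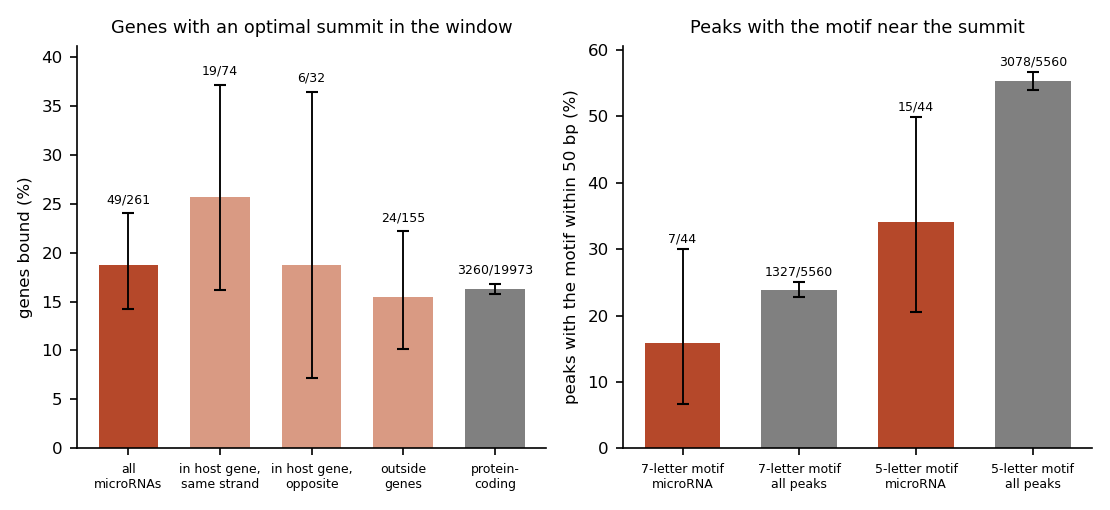
Left, share of genes with an optimal summit in the window, for all microRNA genes, for microRNA genes by position relative to protein-coding genes, and for protein-coding genes; right, share of peaks with the 7-letter motif TGATAAG or the 5-letter motif GATAA within 50 bp of the summit, for the 44 microRNA peaks and all 5560 optimal peaks. Bars start at 0, error bars are exact 95% binomial intervals and the counts stand above them; the microRNA shares of the shorter motif lie below that of all peaks.

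By chromosome, the bound microRNA genes were 14 of 74 on X (18.9%), 11 of 50 on IV (22%), 10 of 49 on II (20.4%), 7 of 27 on III (25.9%), 5 of 28 on V (17.9%) and 2 of 33 on I (6.06%, 0.743 to 20.2%). Genes that share a peak were counted separately, and on III 4 of the 7 share 1 peak. The shares of protein-coding genes by chromosome ran from 15.3% to 18.7%. Those on I, 16.9% of protein-coding genes, are inside the interval of the microRNA share there.

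All 44 microRNA peaks overlapped a peak in the relaxed list of replicate 1, and 40 overlapped 1 in replicate 2 (90.9%, 78.3 to 97.5%), against 93.5% of all optimal peaks. The relaxed lists, which also keep weak candidates, held 26022 peaks in replicate 1 and 30000 in replicate 2. The 4 peaks without an overlap in replicate 2 were those of lin-4, mir-58a, mir-5550 and mir-271. At the 40 peaks seen in both, the replicate summits were a median of 39.5 bp apart. The distance was largest at the mir-229 cluster (190 bp), then at mir-248 (175 bp), mir-8196a (144 bp), mir-8207 (142 bp) and mir-71 (133 bp). Replicate ranks are those of the strongest overlapping peak, which need not have the same summit. Each replicate was also taken alone, at the length of the optimal list. With replicate 2 only, 42 genes were bound, against 13.8% of protein-coding genes. With replicate 1 only, 50 were bound, against 16.6%. Without replicate 1, the 11 genes lost were lin-4, mir-229, mir-64, mir-65, mir-66, mir-241, mir-259, mir-271, mir-5550, mir-58a and mir-8192. Gained were mir-34, mir-392, mir-2214 and mir-356b. Without replicate 2 those lost were mir-1830, mir-71 and mir-8186-2, and those gained were mir-236, mir-784, mir-1832b and mir-8201. The remaining 35 of the 49 were bound with either replicate left out, among them mir-60, mir-83, mir-80 and mir-239a.

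**Figure D5:**
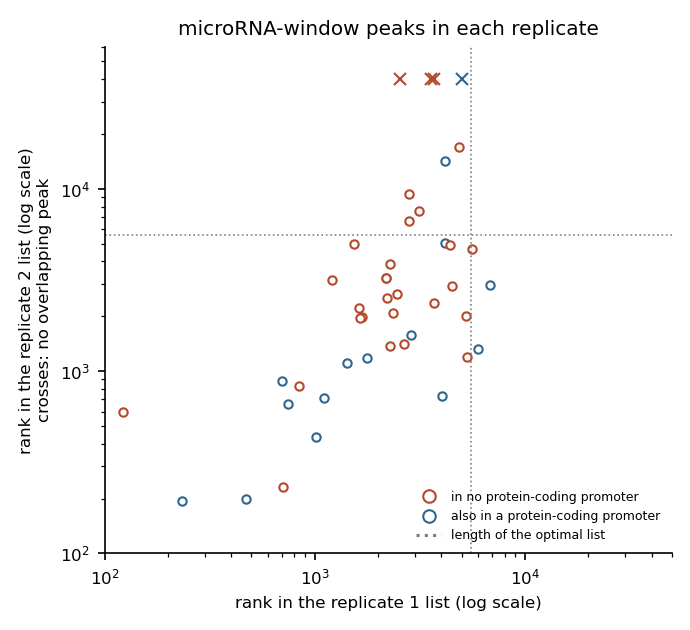
Rank of each of the 44 microRNA peaks in the relaxed list of replicate 1 and of replicate 2 (log scales, low rank is a strong peak, best overlapping peak of each list), with crosses for the 4 peaks without an overlap in replicate 2 and dotted lines at the length of the optimal list. The strong peaks rank high in both replicates, and the peaks above the horizontal line stand higher in replicate 1 than in replicate 2. Among these, mir-52 was still bound without replicate 1.

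TGATAAG lay within 50 bp of the summit, on either strand, in 7 of the 44 microRNA peaks (15.9%, 6.64 to 30.1%), against 23.9% of all optimal peaks. The interval holds the share of all peaks. In sequence of the same length 500 bp away, none of the 44 held it, for which the exact interval allows a share of up to 8.04%, against 2.27% for all optimal peaks. The genes with the element were mir-1830, mir-77, mir-5550, mir-270, mir-75, mir-5592-1 and mir-63, with ranks from 591 to 5033. It was found in 4 of the 15 microRNA peaks in a protein-coding promoter and 3 of the 29 outside one, a split not made for all optimal peaks. Of the 16 peaks outside every protein-coding gene and the promoter of any of its transcripts, those of mir-75 and mir-63, whose sequences are printed above, held it. A match is only a description of these letters.

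The shorter GATAA, which is contained in TGATAAG, lay in 15 of the 44 microRNA peaks (34.1%, 20.5 to 49.9%), against 55.4% of all optimal peaks, a share above the interval. In the sequence 500 bp away it was found in 7 of the 44 (15.9%, 6.64 to 30.1%), against 23.1% for all optimal peaks, a share inside the interval. The base composition also differed: the 101 bases at microRNA summits had a median GC content of 44.1%, with a range of 26.7 to 62.4%, against a median of 39.6% over all optimal peaks. The part of GC content in the motif shares was not tested. Beyond the TGATAAG peaks, GATAA was found at mir-60, which holds it at 2 places, and at mir-83, mir-243, mir-70, mir-2210, mir-52, mir-248 and mir-8192. Of the 10 strongest microRNA peaks, 7 held GATAA and those of mir-5549, mir-354 and mir-4929 did not.

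GAGAG, the string chosen after the sequences were seen, lay within 50 bp of the summit on either strand in 17 of the 44 microRNA peaks (38.6%, 24.4 to 54.5%), against 31.4% of all optimal peaks. The interval holds the share of all peaks. In the sequence 500 bp away it was found in 8 of the 44 (18.2%, 8.19 to 32.7%), against 12.3% for all optimal peaks. At the summits it was found in 13 of the 29 microRNA peaks outside protein-coding promoters (26.5 to 64.3%) and 4 of the 15 inside one (7.79 to 55.1%). These intervals overlap, and all optimal peaks were not split in this way. The genes included lin-4, mir-241, mir-71, mir-80, mir-238, mir-53, mir-58a and the mir-229 cluster, in whose sequence it recurs.

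The developmental timing microRNAs are few, and their counts, 1 of 5 with the let-7 seed and 1 of 2 with the lin-4 seed, stand beside 18.8% of all microRNA genes. Of the genes with the let-7 seed GAGGUAG, which are let-7, mir-48, mir-84, mir-241 and mir-795, only mir-241 had an optimal summit in its window. The mir-241 summit was 2134 bp upstream of its neighbour mir-48, outside the mir-48 window, and mir-48 had a relaxed summit of signal 8.60. For mir-84 the relaxed summit had a signal of 4.56, and the nearest optimal summit was 2204 bp upstream. The let-7 gene record is much longer than the hairpin, and no optimal summit lay in its window, although one stood 511 bp past the record's 5′ end. That peak, at chrX:14744640-14744979, had a signal of 38.1 (rank 3381) and replicate ranks 4579 and 1996. It held TGATAAG within 50 bp of its summit, which lay 539 bp upstream of the let-7 hairpin. With the hairpin's 5′ end in place of the gene's, an alternative chosen after the data were seen, let-7 was bound and the count was 50 genes. In the lin-4 family, lin-4 was bound and mir-237 was not, although an optimal summit stood 481 bp past the mir-237 5′ end.

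Of the other microRNAs followed in any case, mir-71, mir-239a and mir-80 were bound, as described above. No optimal summit lay in the window of mir-34, known for stress responses, where the pooled relaxed list had a summit of signal 21.2 and the nearest optimal summit was 1227 bp upstream, but mir-34 was bound without replicate 1. The neuronal lsy-6 had no summit in any list, with the nearest optimal summit 46705 bp away, and the muscle microRNA mir-1 had none in the pooled list, with the nearest 8537 bp away. For mir-246 the pooled relaxed list held none, and the nearest optimal summit was 3060 bp upstream. For mir-228 a relaxed summit of signal 5.61 was found, and the nearest optimal summit was 12941 bp upstream. None of these 5 had a summit of the optimal list within its window.

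Below the threshold, the pooled relaxed list of 30000 peaks had a summit in 109 of the 261 microRNA windows (41.8%, 35.7 to 48.0%), against 45.1% of protein-coding genes. Of these, 60 genes had only peaks below the threshold, and the other 152 had none. The 5 unbound genes with the strongest relaxed summit were mir-236 (signal 23.79), mir-4934 (22.3), mir-1832b (22.3), mir-90 (22.0) and mir-8212 (21.6). The weakest members inside the threshold were the second mir-239a and mir-239b peak (24.18), lin-4 (25.6), mir-8186-2 (26.3), mir-71 (26.5) and mir-5550 (26.6), and the optimal list as a whole ended at 23.82. In the pooled relaxed list mir-236 had rank 5563, just past the length of the optimal list of 5560. The values just inside and just outside the threshold thus nearly touch, which a cut in a ranked list gives by itself. In the separate relaxed lists, 105 windows held a summit of replicate 1 and 106 a summit of replicate 2, and 46 of the 49 bound genes had both.

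By seed, the 4 groups with several bound genes held 15 of the bound genes. The mir-51 family had 5 of 6 genes bound through 3 peaks, and the AUGACAC group had 5 of 5 through 2 peaks. The UUGUACU group had 3 of 3 bound through 3 peaks, of which the pair shared by mir-239a and mir-239b overlapped the same peak in each replicate. Neighbouring genes that share a peak are not separate observations, and the share over all microRNA genes was 18.8%. The GGCAAGA group had 2 of 6 bound, each with a peak of its own, and mir-73, mir-266, mir-8187 and mir-8188 were not bound. In the largest seed group, the mir-35 group (seed CACCGGG), which acts in embryos, 0 of 8 genes were bound, and at so few genes nothing is read from that count. The group with seed GAGAUCA had mir-80 bound and mir-58b, mir-58c, mir-81, mir-82 and mir-2209a not.

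A list of processing and silencing genes, not all of them particular to microRNAs, and a list of heterochronic genes were read with the same window. The gene lists were chosen with earlier results of these data known, so the shares below describe the lists and test nothing. Of 15 processing and silencing genes, 7 were bound (46.7%, 21.3 to 73.4%), against 16.3% of all protein-coding genes. The summits were 960 bp upstream for ain-1, 832 bp for alg-5, 811 bp for nhl-2 and 730 bp for cgh-1. They were 144 to 414 bp upstream for rde-4, tsn-1 and vig-1. Whether these summits also lie in promoters of other genes was not read. In the window of 500 bp upstream to 100 bp downstream, added after the data were seen, 3 of the 15 were bound (20%, 4.33 to 48.1%), against 12.5% of protein-coding genes, a share inside that interval. These 3 were rde-4, tsn-1 and vig-1. The strongest of the 7 in the first window was nhl-2, a TRIM-NHL cofactor of the silencing complex, with a signal of 133 (rank 186). Then came cgh-1, a DEAD-box helicase (83.9), ain-1, the GW182-like partner of the Argonautes (65.9), and rde-4, a double-stranded RNA binding protein (57.6). The weakest of the 7 were vig-1 (43.8), tsn-1 (43.0) and the Argonaute gene alg-5 (41.8). Those without an optimal summit were drsh-1, pash-1, dcr-1, alg-1, alg-2, ain-2, xrn-1 and xrn-2. The hairpin-cutting genes drsh-1, pash-1 and dcr-1 and the main microRNA Argonautes alg-1 and alg-2 therefore all lacked one. Of 9 heterochronic genes, 3 were bound (33.3%, 7.49 to 70.1%), namely lin-28 (signal 29.8, rank 4513), lin-66 (25.8) and lin-46 (24.3), all weak, and in the narrower window 1 of the 9 was. The targets lin-14, lin-41 and hbl-1 had no optimal summit, nor had lin-29, lin-42 and daf-12. Among marker genes read in the same way, the intestinal elt-2, act-5 and asp-1 and the neuronal snb-1 were bound, while the intestinal ges-1 and vit-2, the neuronal unc-119 and rab-3, the muscle myo-3 and unc-54, and the hypodermal dpy-7 and rol-6 were not.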

How the data were processed

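PQM-1 peaks were taken from lists the authors deposited for ce11: the optimal list, the pooled relaxed list and a relaxed list per replicate. Each peak has a signal value, a score deposited by the authors whose scale is not stated, and a summit offset. Library fragments were 150 to 350 bp, per the labels. The aligner, caller and threshold are not stated. The lists hold no reads, so depth is unknown. Gene 5′ ends and biotypes came from Ensembl release 115. Windows and motifs were read with Python 3.11.15, numpy 2.4.6 and scipy 1.17.1, and figures drawn with matplotlib 3.10.9. The window code was tested on simulated data, and bedtools 2.31.1 also found 49 bound windows. Shares carry exact 95% binomial intervals, and no chance test was made. The rule for naming took every bound microRNA, with full values for those outside protein-coding promoters and the 10 strongest, 14 well-known microRNAs in any case, seed groups with several bound genes and the 5 strongest unbound. The genes and lists were chosen with earlier results of these data known. The alternatives changed the window, the overlap, the list length, the replicate, the start sites and the motif span. Mature sequences are given for the bound genes of the seed groups and for the timing microRNAs, and that of 1 gene is not reported here.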

Additional observations from a re-analysis of the deposited data

How the results depend on the processing

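The count of bound microRNA genes was 49 of 261, against 16.3% of protein-coding genes. It was 34 with a window of 500 bp upstream to 100 bp downstream (12.5% of protein-coding genes). With 2000 bp upstream to 500 bp downstream it was 69 (21.2%). It was 57 when 1 bp of peak overlap was enough, 45 with peaks seen in both replicates and 50 from the hairpin 5′ end. The last was a choice made after the data were seen, and these 3 counts have no protein-coding share beside them. The count fell to 26 with the strongest 2780 peaks (8.19% of protein-coding genes) and to 9 with the strongest 1000 peaks (2.88%), since fewer peaks were used. Without replicate 1 it was 42 (13.8% of protein-coding genes), and without replicate 2 it was 50 (16.6%). The share of microRNA peaks in a protein-coding promoter, 34.09%, was 66.67% with the strongest 1000 peaks, which left 9. The same share over all of the strongest 1000 peaks was not counted. With the starts of all transcripts the microRNA share was 50%. It ranged from 29.55 to 43.48% under the other settings, and from 31.91 to 39.53% with a replicate left out. The share with TGATAAG, 15.91%, ranged from 11.63 to 22.22% under all settings, and from 11.63 to 14.89% with a replicate left out. Bound under every setting were 6 genes, mir-60, mir-77, mir-4929, mir-5549, mir-83 and mir-70. No paired analysis was possible because the design holds 1 group. With the narrower window, a setting added after the data were seen, 3 of the 15 processing and silencing genes and 1 of the 9 heterochronic genes were bound, against 7 and 3. Depth is unknown and the named control library was not used here, so a window without a peak is one where none was called.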
